A study of Mus musculus with 12 samples.

Results

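Transcripts of 6 genes that mark neuronal differentiation (Elavl3, Elavl4, Dcx, Stmn2, Gap43 and Map2) were followed across 6 groups of cultured mouse cells, each measured on 2 bead arrays with a single dye. The genes were taken by symbol, with every probe that carries it, which gave 12 of the 25697 probes on the array and 6 of the 10144 genes tested. The labels give every group a mixed background of C57BL/6, CD1 and C3H. The 4 groups of peripheral neural stem cells (pNSCs) are cultures with neural stem cell features grown from tissue outside the central nervous system. They were the late lung culture alpNSCs-late, the early lung culture alpNSCs-early, the late limb culture elpNSCs-late and the early limb culture elpNSCs-early. Lung cells came from adult mice and limb cells from mid-gestation embryos. They were set against Control-NSC, neural stem cells of whole brain from adult or postnatal mice, and against Fibroblasts, whose tissue and age the sources used here do not give. What early and late mean in passages is not in the labels. The study describes such arrays for limb and lung lines that were obtained after a low-pH treatment of the starting cells, while the labels name no treatment. Each tissue has a single line label, so tissue, age of the source animals and line cannot be told apart. Clusters that gave rise to pNSC lines were picked singly and were usually clonal, according to the methods. Neural cultures were kept with EGF and bFGF, and limb and lung cells outside that medium were kept in serum, so that medium and cell type cannot be told apart in the comparisons with Fibroblasts. The replicates are biological according to the methods, yet whether the 2 arrays of a group came from separate cultures is not stated in the sources used here. The p-values therefore cover the spread between these samples alone, and that spread may be technical.

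As a neural progenitor becomes a neuron, it leaves the cell cycle and switches on genes for neuron-specific RNA binding, microtubule assembly and axon growth. Elavl3 and Elavl4 encode neuronal Hu proteins, which bind AU-rich elements and steady or splice neuronal transcripts. Dcx encodes doublecortin, a microtubule-associated protein of migrating neuroblasts, and Stmn2 encodes a stathmin that regulates microtubules in growing axons. Gap43 encodes a membrane protein of the growth cone, and Map2 a microtubule-associated protein best known from dendrites. The last 2 are also transcribed outside mature neurons, Map2 in neural progenitors and Gap43 in glial precursors.

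Between 11801 and 12836 probes per array were above background, which here means a detection p-value under 0.05 against the negative controls. A level below is a log2 intensity after normalization, printed with its SD over the 2 arrays of the group (n = 2). Raw intensities are on the scanner's linear scale before normalization. Neither scale allows a level of 1 gene to be set against that of another. Of 7 neural stem cell markers, 7 were above background on both arrays of every pNSC group and of Control-NSC, against 4 in Fibroblasts. Of 7 fibroblast markers, elpNSCs-early and Control-NSC had 1 (Thy1) and the other pNSC groups 0 on any array, against 7 in Fibroblasts. In bulk samples, fewer cells of a type and less RNA per cell cannot be told apart.

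At a detection p under 0.05, all 4 pNSC groups had more of the 6 genes above background than Control-NSC. On both arrays of alpNSCs-late, 4 genes were above background (Elavl3, Dcx, Gap43 and Map2), and Elavl4 was on 1 array. In alpNSCs-early there were 3 (Elavl3, Gap43 and Map2), again with Elavl4 on 1 array. In elpNSCs-late there were 4 (Elavl4, Dcx, Gap43 and Map2), with Elavl3 on 1 array, and in elpNSCs-early the same 4 without Elavl3. In Control-NSC 2 genes were above background (Gap43 and Map2), and in Fibroblasts 3 (Stmn2, Gap43 and Map2). No group had all 6, and Stmn2 was above background on no pNSC or Control-NSC array. By array, 4 to 5 of the 6 genes were detected in alpNSCs-late, 3 to 4 in alpNSCs-early, 4 to 5 in elpNSCs-late, 4 in elpNSCs-early, 2 in Control-NSC and 3 in Fibroblasts. Some detections lay near the threshold. Elavl3 had detection p-values of 0.04511 and 0.02005 in alpNSCs-early, and Dcx had 0.0401 and 0.04762 in elpNSCs-early. At a detection p under 0.01, alpNSCs-early would keep only Gap43 and Map2 on both arrays, the same genes as Control-NSC. Dcx would then be on both arrays of no group, with 0.03634 and 0.02632 in alpNSCs-late and 0.01253 on elpNSCs-late replicate 1. That would leave Elavl3, Gap43 and Map2 in alpNSCs-late, and Elavl4, Gap43 and Map2 in each limb group.

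**Figure D1:**
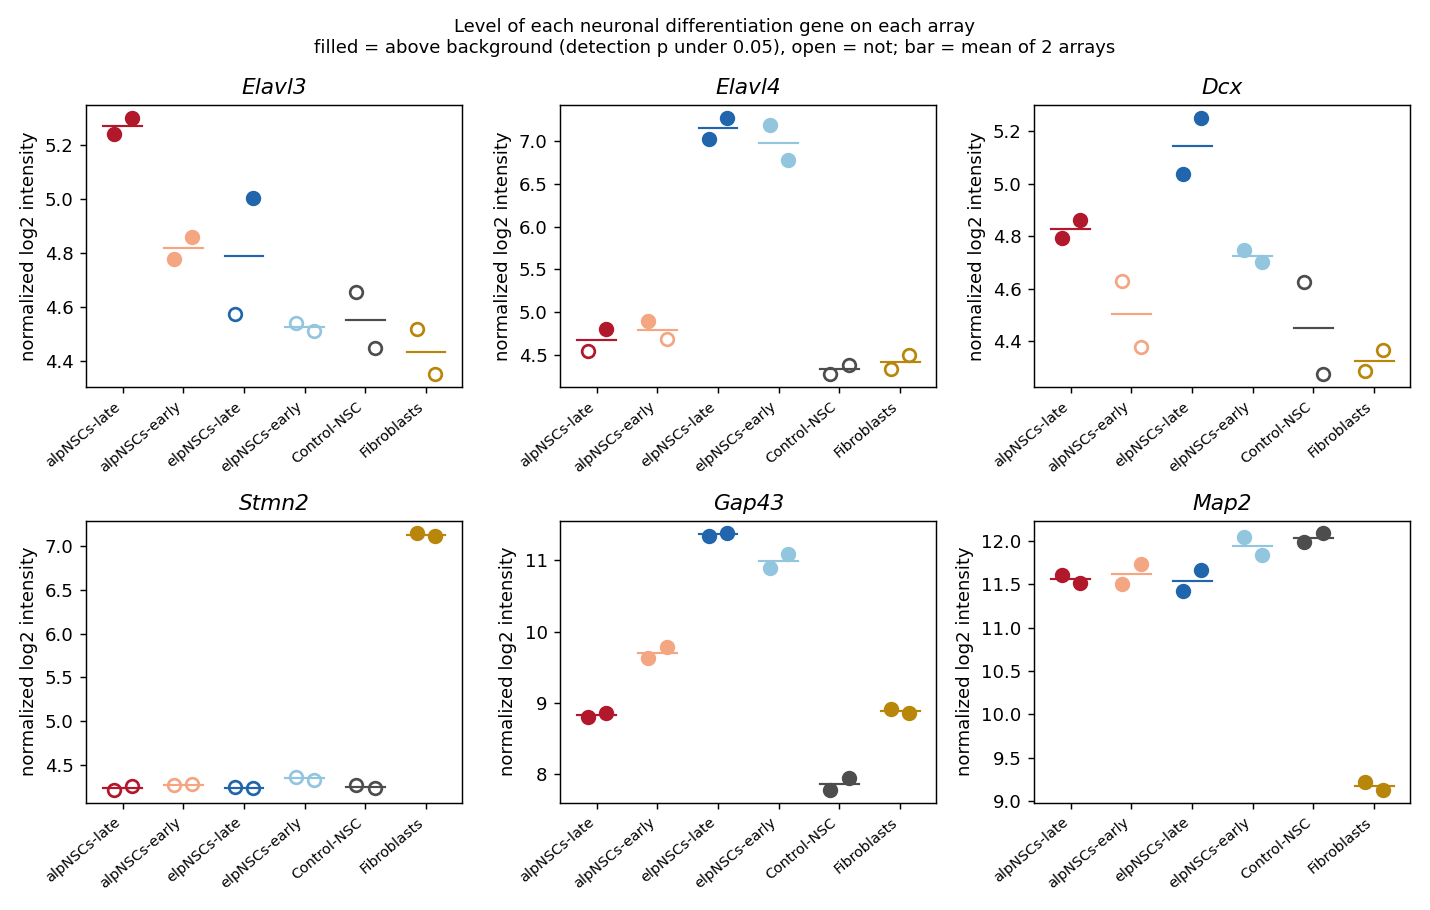
Normalized log2 intensity (y axis, a separate scale in each panel) of each gene on each array by group (x axis). Filled points are above background (detection p under 0.05), open points are not, and bars are means of 2 arrays. Elavl4 and Gap43 are highest on the 4 limb arrays, Stmn2 is above background only on the 2 Fibroblasts arrays, and all Map2 points of the neural groups lie above those of Fibroblasts.

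Both limb groups expressed Elavl4, the neuronal Hu protein that carries the alias HuD, and no other group did so on both arrays. The raw intensity of its brightest probe was 107.9 and 108.5 in alpNSCs-late, 111 and 104.9 in alpNSCs-early, 220.6 and 285.8 in elpNSCs-late, 190.8 and 182.3 in elpNSCs-early, 97.5 and 103.4 in Control-NSC, and 99.5 and 109.6 in Fibroblasts. All 4 limb arrays were high, with no overlap with any other array, whereas only 1 array of each lung group was above background. The normalized level was 7.15 ± 0.18 in elpNSCs-late and 6.98 ± 0.29 in elpNSCs-early, against 4.33 ± 0.08 in Control-NSC. Where no array of a group is above background, that group has only a bound. The fold is then given as at least N-fold, the brighter group's mean over the dim group's mean of, per array, the higher of the probe's own value and the lowest signal above background on that array. Elavl4 was at least 5.27-fold higher in elpNSCs-late than in Control-NSC (log2 difference 2.82 ± 0.16 SE, adjusted p = 1.04e-07). It was at least 4.69-fold higher in elpNSCs-early than in Control-NSC (2.66 ± 0.16 SE, adjusted p = 1.91e-07). Against Fibroblasts the bounds were 5.72-fold for elpNSCs-late and 5.08-fold for elpNSCs-early. These bounds hold for the background correction used, and the size of the Elavl4 difference depended on it. For elpNSCs-late against Control-NSC it was 1.19 on the log2 scale with no background correction and 5.07 in the deposited log2 values, and the call held in both.

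The lung groups differed from the limb groups in Elavl4 at both stages. Its level was 4.67 ± 0.18 in alpNSCs-late, against 7.15 ± 0.18 in elpNSCs-late (log2 difference -2.48 ± 0.16 SE, adjusted p = 4.1e-07). It was 4.79 ± 0.15 in alpNSCs-early, against 6.98 ± 0.29 in elpNSCs-early (-2.20 ± 0.16 SE, adjusted p = 1.41e-06). Against Control-NSC the lung differences did not pass the threshold, at 0.35 (95% interval -0.0036 to 0.70, adjusted p = 0.225) for alpNSCs-late and 0.46 (0.11 to 0.81, adjusted p = 0.0704) for alpNSCs-early. The second of these passed when either elpNSCs-early array was left out (adjusted p = 0.0343 each time). Within lines, late and early arrays overlapped, and neither difference passed the threshold.

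All 3 probes of Elavl4 passed the detection filter, and the other 2 gave the same order of lines. The probe ILMN_3028854 read 179.7 and 202.7 in elpNSCs-late and 115.5 and 177.7 in elpNSCs-early, against 101.2 to 106.3 in Control-NSC and 95.5 to 104.5 in the lung groups. The dimmest probe, ILMN_2734000, read 111.2 to 120.4 on the 4 limb arrays and 90.9 to 104.1 on all 8 others. Each probe was above background on 4 of 4 limb arrays. In fits with every kept probe on its own, the differences of elpNSCs-late against Control-NSC were 2.12 ± 0.26 SE (adjusted p = 0.000179) and 0.76 ± 0.14 SE (adjusted p = 0.00402). Of 5 oligodendrocyte precursor markers on the array, 3 were above background on both arrays in alpNSCs-late, 4 in alpNSCs-early, 5 in elpNSCs-late, 4 in elpNSCs-early and 4 in Control-NSC, against 2 in Fibroblasts. Their summed raw intensity was 14739 to 15067, 15662 to 15825, 14497 to 14812, 16224 to 16500, 14554 to 18554 and 2005 to 2276 in that order of groups. Against Control-NSC, 1 of the 5 was higher and 1 lower in alpNSCs-late, 2 were lower in alpNSCs-early, 3 were higher in elpNSCs-late (median log2 difference 0.85) and 1 was higher in elpNSCs-early. Lung against limb, 3 of the 5 were lower at the late and 3 at the early stage, with medians of -0.87 and -0.75. Among them Cspg4, the NG2 proteoglycan, was 0.85 ± 0.14 SE higher on the log2 scale in elpNSCs-late than in Control-NSC (adjusted p = 0.00104), and the part of such cells in the Elavl4 signal was not tested.

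Elavl3, the HuC gene, had its highest normalized level in alpNSCs-late, close to background. Its single probe had raw intensities of 123.9 and 119.2 in alpNSCs-late, 108.8 and 108.1 in alpNSCs-early, 108.1 and 125.5 in elpNSCs-late, 96.8 and 100.4 in elpNSCs-early, 108.8 and 105.3 in Control-NSC, and 105.6 and 104.7 in Fibroblasts. In normalized level both alpNSCs-late arrays (5.24 and 5.30) lay above all others, and from alpNSCs-early down the groups next to each other in order overlapped. Elavl3 was at least 1.43-fold higher in alpNSCs-late than in Control-NSC (log2 difference 0.72 ± 0.15 SE, adjusted p = 0.00538), a call that was lost without Control-NSC replicate 2 (0.62, adjusted p = 0.0691). Against Fibroblasts it was at least 1.55-fold higher in alpNSCs-late (0.83 ± 0.15 SE, adjusted p = 0.000295). The Elavl3 difference of alpNSCs-late from Control-NSC was 0.21 with no background correction and 1.64 in the deposited log2 values, and was called in both. The difference of alpNSCs-early from Fibroblasts (0.38 ± 0.15 SE, adjusted p = 0.0384) was lost without any 1 of 6 arrays, those of alpNSCs-early, alpNSCs-late and Fibroblasts, at adjusted p = 0.0514 to 0.2, and with no background correction (0.12, adjusted p = 0.113). Between alpNSCs-late and elpNSCs-late the difference was 0.48 ± 0.15 SE (adjusted p = 0.0575). Without elpNSCs-late replicate 2, the only limb array with Elavl3 above background, it passed (0.70, adjusted p = 0.0134).

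The sequences upstream of the Hu genes are shown because the lines differed in Elavl4. RefSeq start sites (build GRCm38.p6) were matched for 4 of the 6 genes (Elavl3, Elavl4, Dcx and Map2), with 8 starts in all, of which 4 belong to Elavl4. Each run below holds 250 bases that end at the base before a start, 5′ to 3′ on the gene's strand. Capitals mark the E-box letters CAGCTG and CAGATG (or its reverse CATCTG), of the kind that proneural basic helix-loop-helix factors bind.
Elavl3, chr9:22052024-22052273, minus strand: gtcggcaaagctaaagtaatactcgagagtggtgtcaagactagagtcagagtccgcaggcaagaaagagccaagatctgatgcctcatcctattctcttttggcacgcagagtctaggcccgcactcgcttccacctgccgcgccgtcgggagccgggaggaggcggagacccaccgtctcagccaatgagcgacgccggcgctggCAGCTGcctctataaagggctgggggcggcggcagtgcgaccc
Elavl4, downstream start, chr4:110287528-110287777, minus strand: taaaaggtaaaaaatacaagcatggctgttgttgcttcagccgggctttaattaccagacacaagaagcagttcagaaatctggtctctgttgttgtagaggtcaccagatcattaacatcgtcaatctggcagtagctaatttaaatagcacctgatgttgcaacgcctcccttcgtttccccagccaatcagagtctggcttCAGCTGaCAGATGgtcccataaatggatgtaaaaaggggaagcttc
Elavl4, upstream start, chr4:110351912-110352161, minus strand: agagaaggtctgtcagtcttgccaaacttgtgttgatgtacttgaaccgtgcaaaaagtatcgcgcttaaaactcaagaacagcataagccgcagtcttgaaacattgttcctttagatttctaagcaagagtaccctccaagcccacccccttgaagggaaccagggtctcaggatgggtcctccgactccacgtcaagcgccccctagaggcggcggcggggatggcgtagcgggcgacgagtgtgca
Elavl3 held CAGCTG once, starting 43 bases before the start. The downstream Elavl4 start shown held CAGCTG at 46 and CAGATG at 39 bases, separated by a single base, and the upstream Elavl4 start held neither. Of the 4 Elavl4 starts, 3 held at least 1 of these letters, and 2 of those windows overlap. None of the Dcx or Map2 starts held these letters. Searched on both strands, CAGCTG was in 13% and CAGATG in 14.4% of 32851 promoter windows of this length, and either in 25.5%. These matches describe letters in the window, and the arrays do not tell which start was used.

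Dcx, the neuroblast microtubule protein, lay just above background in 3 of the 4 pNSC groups. Its brightest probe had log2 levels of 4.79 and 4.86 in alpNSCs-late, 4.63 and 4.38 in alpNSCs-early, 5.04 and 5.25 in elpNSCs-late, 4.75 and 4.70 in elpNSCs-early, 4.63 and 4.28 in Control-NSC, and 4.29 and 4.37 in Fibroblasts. The elpNSCs-late arrays were highest and did not overlap with any other group, whereas alpNSCs-early, Control-NSC and Fibroblasts were not above background on any array. Dcx was at least 1.31-fold higher in elpNSCs-late than in Control-NSC (log2 difference 0.69 ± 0.14 SE, adjusted p = 0.00543). This call was lost without elpNSCs-late replicate 2 (0.58, adjusted p = 0.0548) or without Control-NSC replicate 2 (0.52, adjusted p = 0.0748). The Dcx difference was 0.22 with no background correction and 1.89 in the deposited log2 values, and was called in both. Differences from Control-NSC in the other pNSC groups were 0.05 to 0.38 and did not pass the threshold.

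Against Fibroblasts, Dcx was at least 1.42-fold higher in elpNSCs-late (0.82 ± 0.14 SE, adjusted p = 0.000291) and at least 1.14-fold higher in alpNSCs-late (0.50 ± 0.14 SE, adjusted p = 0.0088). In elpNSCs-early the bound was 1.06-fold (0.40 ± 0.14 SE, adjusted p = 0.0306). The call for alpNSCs-late was lost without alpNSCs-late replicate 2 (adjusted p = 0.0522) or Fibroblasts replicate 1 (adjusted p = 0.0545), and that for elpNSCs-early without any 1 of its own or the Fibroblasts arrays (adjusted p = 0.0598 to 0.13) or with no background correction (0.14, adjusted p = 0.0847). The probes of Dcx disagreed in part. ILMN_2931623 was above background on 1 array each of alpNSCs-late, elpNSCs-late and elpNSCs-early and on no other array. It did not pass the threshold for elpNSCs-late against Control-NSC (0.33 ± 0.15 SE, adjusted p = 0.211). ILMN_1256251 was above background on 0 of 12 arrays, at raw intensities of 90.5 to 107, and failed the detection filter.

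**Figure D2:**
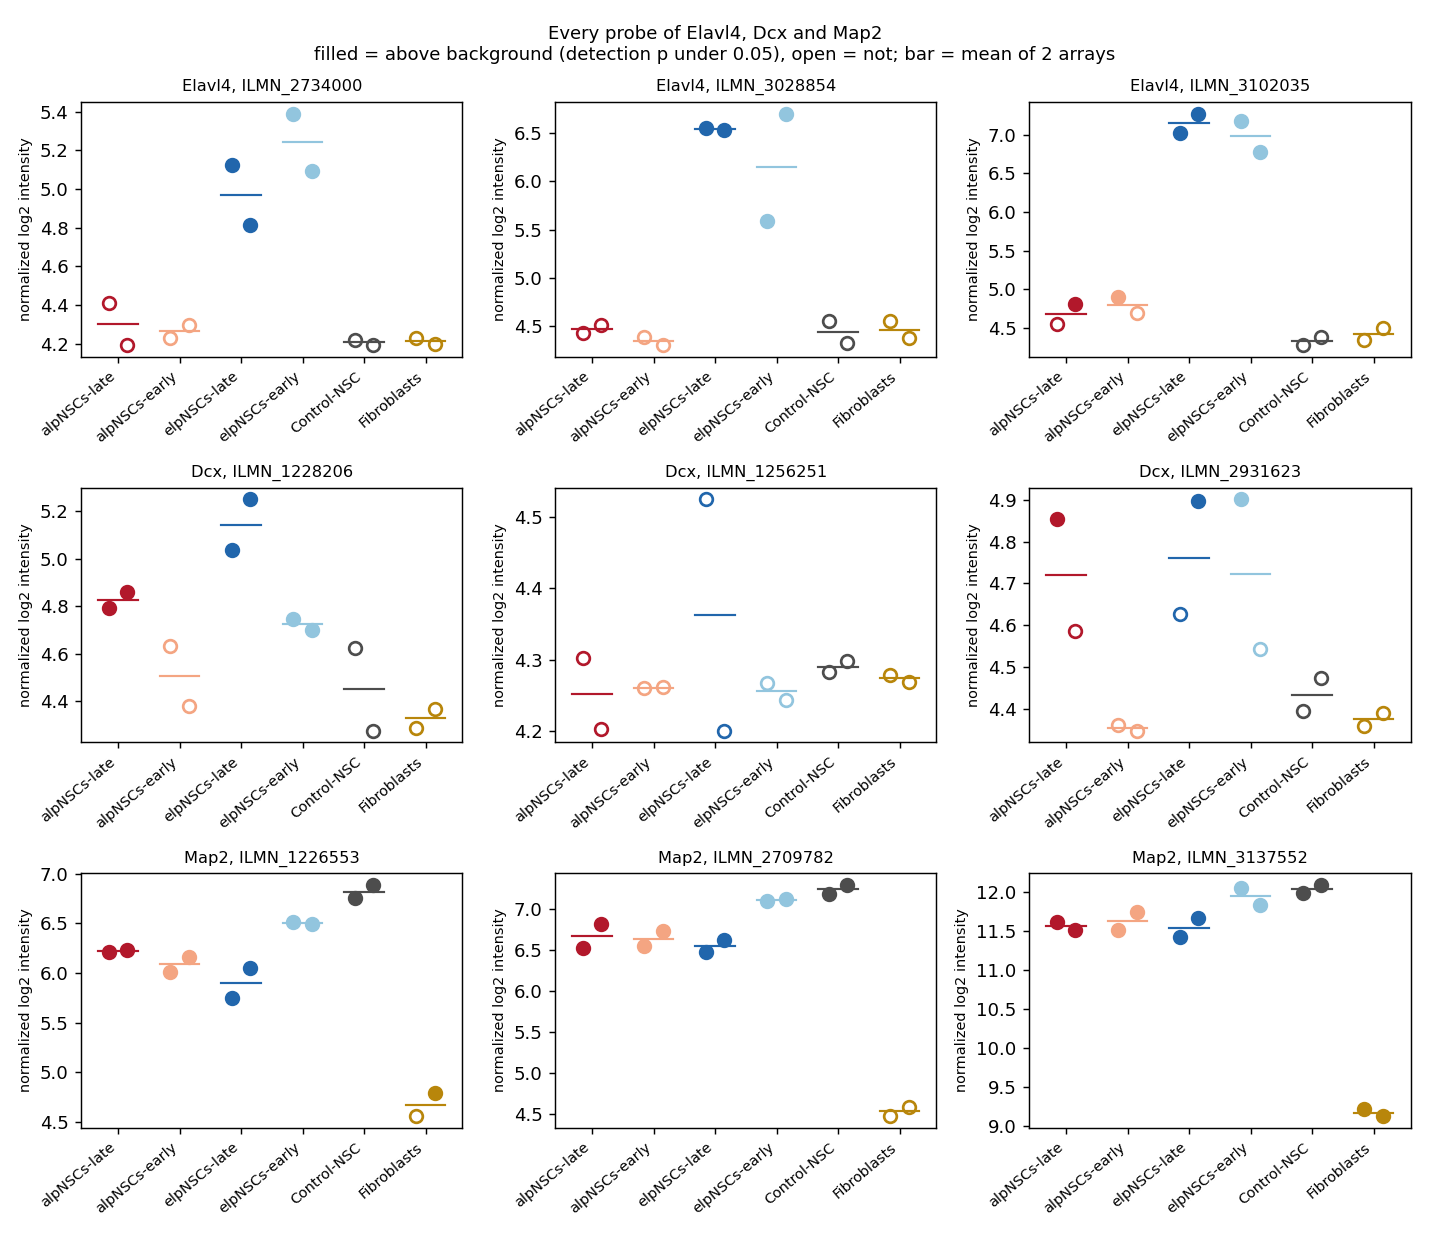
Normalized log2 intensity (y axis, a separate scale in each panel) of all 3 probes each of Elavl4, Dcx and Map2 on every array by group (x axis), with filled points above background, open points not, and bars at the mean of 2 arrays. The Elavl4 probes are high on the 4 limb arrays alone, 1 Dcx probe is above background on 0 of 12 arrays, and the Map2 probes share the order with Control-NSC highest and Fibroblasts lowest.

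Stmn2, the axonal stathmin, was above background in Fibroblasts alone. Its single probe read 95.2 and 94.9 in alpNSCs-late, 95.9 and 94.5 in alpNSCs-early, 97.3 and 100.9 in elpNSCs-late, 93.5 and 95.5 in elpNSCs-early, 97.1 and 97.2 in Control-NSC, and 221.5 and 237.9 in Fibroblasts. The 10 neural arrays lay between 93.5 and 100.9, none of them above background, and both Fibroblasts arrays lay far above them. The probe passed the detection filter through the 2 Fibroblasts arrays only, which fixed the direction of the differences below. Stmn2 was at least 5.26- to 5.42-fold lower in the pNSC groups than in Fibroblasts (log2 differences -2.90 to -2.79, adjusted p = 7.98e-11 to 1.31e-10). In Control-NSC it was at least 5.19-fold lower (-2.88 ± 0.10 SE, adjusted p = 9.26e-11). The size again depended on the background correction. Over the 5 neural groups the Stmn2 differences were -1.23 to -1.16 with no correction and -5.60 to -4.93 in the deposited log2 values, all of them called. Markers of other cells were present in Fibroblasts too. Of 4 blood and microglia markers, Aif1 and Lyz2 were above background on both Fibroblasts arrays, and Ptprc and Cx3cr1 on none, with a summed raw intensity of 1020 to 1029 against 369.8 to 425 on all pNSC and Control-NSC arrays. Of 4 neural crest and Schwann cell markers, 1 (Tfap2a) was above background in Fibroblasts, with a summed raw intensity of 544.5 to 595.4, against 382 to 553.4 on the pNSC and Control-NSC arrays. Tfap2a was not particular to Fibroblasts, since it was also above background on both arrays of Control-NSC and of each lung group. Both lung groups had Ngfr above background on both arrays as well. The part of such cells in the Stmn2 signal was not tested.

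Map2, the dendritic microtubule protein, was high in every neural group and lowest in Fibroblasts. Its brightest probe had raw intensities of 3306 and 2882 in alpNSCs-late, 2921 and 3277 in alpNSCs-early, 2933 and 4157 in elpNSCs-late, 3416 and 3352 in elpNSCs-early, 4166 and 4654 in Control-NSC, and 634.2 and 677.9 in Fibroblasts. All 10 neural arrays were above both Fibroblasts arrays, and both Control-NSC arrays had higher raw intensities than all pNSC arrays. In normalized level Control-NSC (12.04 ± 0.07) overlapped with elpNSCs-early (11.94 ± 0.15). Relative to Fibroblasts, Map2 was higher by 5.25-fold in late and 5.47-fold in early lung cells, by 5.18-fold in late and 6.83-fold in early limb cells, and by 7.30-fold in Control-NSC, with adjusted p = 1.4e-09 to 8.53e-09.

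Against Control-NSC, Map2 was lower in the late cultures by small amounts. The log2 difference was -0.47 ± 0.13 SE (adjusted p = 0.0382) in alpNSCs-late and -0.50 ± 0.13 SE (adjusted p = 0.0261) in elpNSCs-late, 1.39- and 1.41-fold. In alpNSCs-early it was -0.41 ± 0.13 SE (adjusted p = 0.0528), and in elpNSCs-early -0.09 ± 0.13 SE (adjusted p = 0.675). These values stood near the threshold, and several single arrays decided them. Leaving out any 1 array of alpNSCs-late, Control-NSC or Fibroblasts ended the alpNSCs-late call (adjusted p = 0.0571 to 0.219), and leaving out elpNSCs-late replicate 1 or either Control-NSC array ended the elpNSCs-late call (adjusted p = 0.0794 to 0.165). With median scaling in place of quantiles neither call held, at -0.52 in alpNSCs-late (adjusted p = 0.0529) and -0.39 in elpNSCs-late (adjusted p = 0.122). The other probes of Map2 gave larger differences from Control-NSC, at -0.60 ± 0.14 SE and -0.57 ± 0.13 SE in alpNSCs-late, -0.73 ± 0.14 SE and -0.60 ± 0.13 SE in alpNSCs-early, and -0.92 ± 0.14 SE and -0.69 ± 0.13 SE in elpNSCs-late. All 6 passed the threshold (adjusted p = 0.000739 to 0.0151). In elpNSCs-early both missed it (-0.32 and -0.13, adjusted p = 0.125 and 0.546).

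Gap43, the growth cone protein, varied most clearly between the neural groups. Its single probe had raw intensities of 562 and 527.2 in alpNSCs-late, 846 and 944.5 in alpNSCs-early, 2811 and 3381 in elpNSCs-late, 1566 and 2086 in elpNSCs-early, 305.6 and 339.6 in Control-NSC, and 536 and 581.8 in Fibroblasts. It was above background on 12 of 12 arrays, and in normalized level no 2 groups overlapped. The order was elpNSCs-late (11.36 ± 0.02), elpNSCs-early (10.99 ± 0.14), alpNSCs-early (9.71 ± 0.11), Fibroblasts (8.90 ± 0.04), alpNSCs-late (8.84 ± 0.04) and Control-NSC (7.87 ± 0.12). Of these neighbours, alpNSCs-late and Fibroblasts differed by -0.06 (95% interval -0.32 to 0.20, adjusted p = 0.694).

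All 4 pNSC groups exceeded Control-NSC in Gap43. The difference was 1.96-fold in alpNSCs-late (log2 0.97 ± 0.12 SE, adjusted p = 0.000118) and 3.57-fold in alpNSCs-early (1.84 ± 0.12 SE, adjusted p = 3.32e-07). It was 11.3-fold in elpNSCs-late (3.49 ± 0.12 SE, adjusted p = 1e-09) and 8.71-fold in elpNSCs-early (3.12 ± 0.12 SE, adjusted p = 3.56e-09). Against Fibroblasts, Gap43 was 5.53-fold higher in elpNSCs-late, 4.27-fold in elpNSCs-early and 1.75-fold in alpNSCs-early, and 2.04-fold lower in Control-NSC (adjusted p = 1.81e-09 to 7.39e-05). Of 4 tested astrocyte markers, 1 in late and 2 in early lung cells, and 1 in late and 4 in early limb cells, were higher than in Control-NSC (for the last, median log2 difference 1.07), and 0 were lower. Their summed raw intensity over the 5 on the array was 740.6 to 814.8, 834.6 to 838.1, 693.4 to 805.8, 761.6 to 803.6 and 626.2 to 638.3 in those groups and Control-NSC, against 545.5 to 571 in Fibroblasts. Gfap, a defining marker, was above background on no array of either lung group, elpNSCs-early, Control-NSC or Fibroblasts. The part of glial cells in the Gap43 signal was not tested. The lung groups were lower than the limb groups in Gap43 at both stages, by 5.76-fold late (log2 -2.52 ± 0.12 SE, adjusted p = 2.12e-08) and 2.44-fold early (-1.29 ± 0.12 SE, adjusted p = 1.21e-05).

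Against Control-NSC, 3 of the 6 genes were called in alpNSCs-late (Elavl3 and Gap43 higher, Map2 lower), where 12.4% of all genes were called at an adjusted p under 0.05 in either direction. In alpNSCs-early 1 was called (Gap43 higher), with 18.2% of all genes. In elpNSCs-late 4 were called (Elavl4, Dcx and Gap43 higher, Map2 lower), with 15.3% of all genes, and in elpNSCs-early 2 (Elavl4 and Gap43 higher), with 26.1%. Elavl3, Elavl4 and Dcx were above background on no Control-NSC array and passed the detection filter through pNSC arrays only. Against Control-NSC they could thus be called higher but hardly lower. All 4 comparisons share the same Control-NSC arrays, and some single arrays moved the share of all genes by over 1.5 times. It was 8.06% to 8.24% for alpNSCs-late without either of its own or the Control-NSC arrays, 9.27% and 9.45% for elpNSCs-late without either Control-NSC array, and 17.1% for elpNSCs-early without Control-NSC replicate 1. The median log2 difference over the 6 genes was 0.36 in alpNSCs-late and 0.16 in alpNSCs-early, and 0.46 in elpNSCs-late and 0.18 in elpNSCs-early, against 0.01 over all genes in each. In alpNSCs-late, leaving out Control-NSC replicate 2 left 1 of the 3 calls (Gap43), and in elpNSCs-late it left 2 of the 4 (Elavl4 and Gap43). In alpNSCs-early, leaving out either elpNSCs-early array gave 3 calls and either elpNSCs-late array 2, in place of 1.

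Against Fibroblasts most genes on the array differed, and the counts of the 6 were near that background. In alpNSCs-late 4 were called (Elavl3, Dcx and Map2 higher, Stmn2 lower), with 62.1% of all genes. In alpNSCs-early 4 were called (Elavl3, Gap43 and Map2 higher, Stmn2 lower), with 60.6%. In elpNSCs-late 5 were called (Elavl4, Dcx, Gap43 and Map2 higher, Stmn2 lower), with 63%, and in elpNSCs-early the same 5 with 59.1%. In Control-NSC 3 were called (Map2 higher, Stmn2 and Gap43 lower), with 61.9%. These comparisons share the Fibroblasts arrays. Stmn2 passed the detection filter through those arrays only, so the direction of its call was fixed beforehand, and it adds 1 to each count. Elavl3, Elavl4 and Dcx passed the filter through pNSC arrays only, so against Fibroblasts they could hardly be called lower. Between the lines, 2 of the 6 (Elavl4 and Gap43) were lower in alpNSCs-late than in elpNSCs-late, with 10.9% of all genes called. The same 2 were lower in alpNSCs-early than in elpNSCs-early, with 12.5% of all genes called. The first share was 6.08% to 7.01% without either alpNSCs-late array or elpNSCs-late replicate 2, and the second 7.41% without alpNSCs-early replicate 1.

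**Figure D3:**
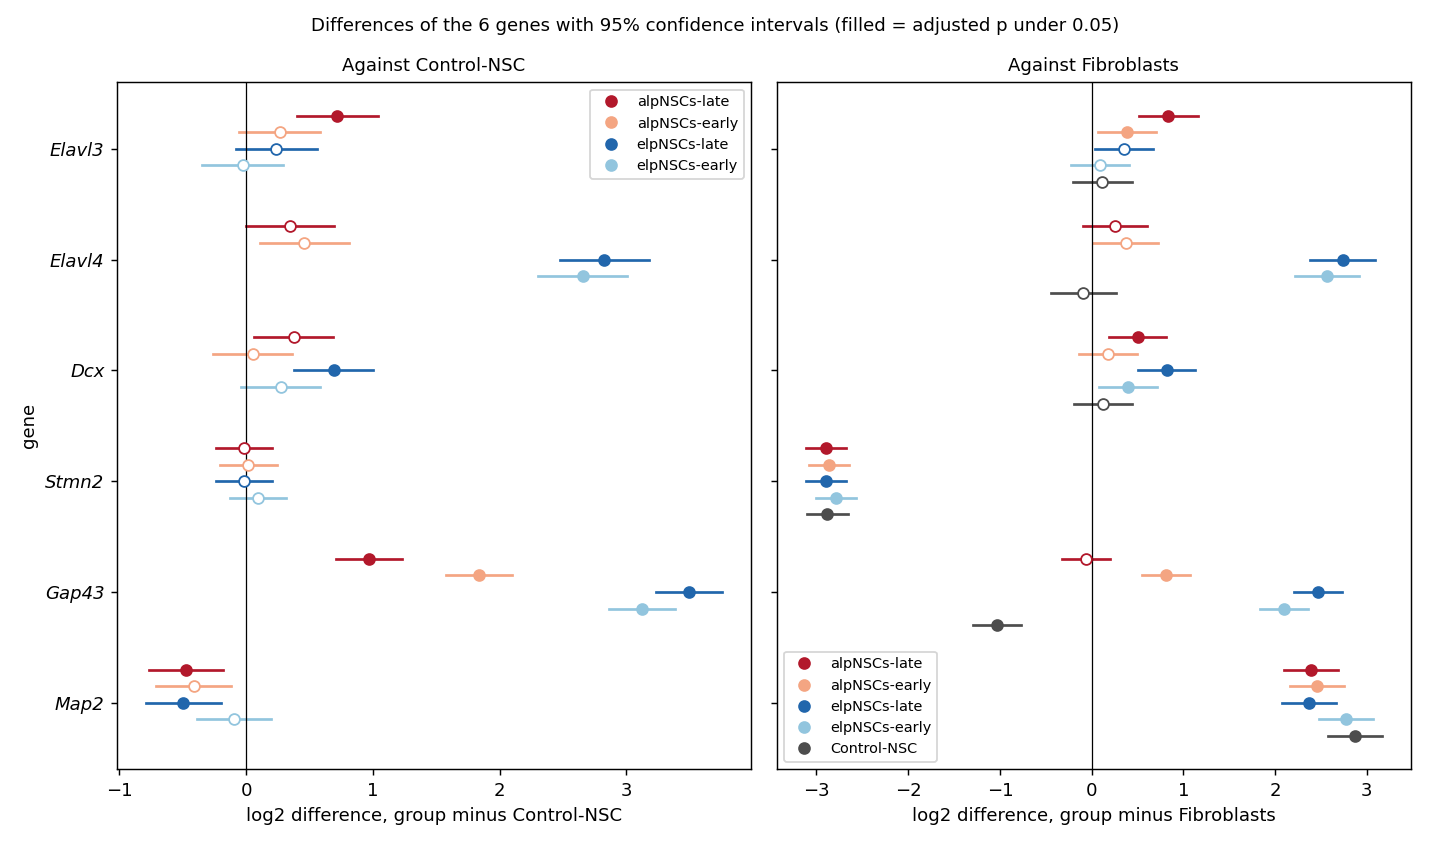
Log2 differences (x axis) of the 6 genes (y axis) in each group against Control-NSC and against Fibroblasts, with 95% confidence intervals. Filled points have an adjusted p under 0.05. Gap43 is higher than Control-NSC in all 4 pNSC groups, Elavl4 stands apart in the 2 limb groups, and Stmn2 is lower than Fibroblasts in all 5 neural groups.

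Late cultures were set against early ones within each line to ask whether the genes changed with time in culture. In the lung line 1 of the 6 changed, with 4.83% of all genes called, a share of 2.29% to 2.77% without any 1 of the 4 lung arrays. Gap43 was 1.83-fold lower in alpNSCs-late than in alpNSCs-early (log2 -0.87 ± 0.12 SE, adjusted p = 0.000898). In the limb line 2 were called, with 23.8% of all genes (15.8% without elpNSCs-late replicate 2). Gap43 was 1.29-fold higher in elpNSCs-late than in elpNSCs-early (0.37 ± 0.12 SE, adjusted p = 0.0414), and Map2 was 1.32-fold lower (-0.40 ± 0.13 SE, adjusted p = 0.0496). Of 4 tested astrocyte markers, 3 fell and 0 rose in elpNSCs-late against elpNSCs-early (median -0.98), and 1 fell and 0 rose in alpNSCs-late against alpNSCs-early. Their part in these differences was not tested. Both limb calls were marginal with 1 probe per gene. For Gap43, leaving out any 1 of 9 arrays ended the call (both of alpNSCs-late, elpNSCs-late, Control-NSC and Fibroblasts, and elpNSCs-early replicate 1) at 0.27 to 0.39 with adjusted p = 0.0518 to 0.197. For Map2 any 1 of 10 did so (all but replicate 2 of elpNSCs-late and of elpNSCs-early), at -0.40 to -0.28 with adjusted p = 0.05 to 0.249. With median scaling of the arrays in place of quantiles, the Map2 difference was -0.11 (adjusted p = 0.668). In fits with every kept probe on its own, the other 2 Map2 probes gave larger differences that passed the threshold. They were -0.60 ± 0.14 SE (adjusted p = 0.00952) and -0.56 ± 0.13 SE (adjusted p = 0.0113).

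The change of Gap43 from early to late cultures differed between the lines, whose intervals between early and late may themselves differ. The lung change minus the limb change was -1.24 ± 0.17 SE (adjusted p = 0.00111), and Gap43 was the only 1 of the 6 called in that test, with 5.66% of all genes called (2.74% to 3.55% without alpNSCs-early replicate 1, elpNSCs-late replicate 2 or either alpNSCs-late array). The other genes had interaction values of -0.28 to 0.34 with adjusted p = 0.369 to 0.863. Elavl3 was 0.45 ± 0.15 SE higher in alpNSCs-late than in alpNSCs-early (adjusted p = 0.123), and Dcx 0.42 ± 0.14 SE higher in elpNSCs-late than in elpNSCs-early (adjusted p = 0.0531), so neither passed the threshold. The Dcx value passed it when either Control-NSC array was left out (adjusted p = 0.0437 each time).

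**Figure D4:**
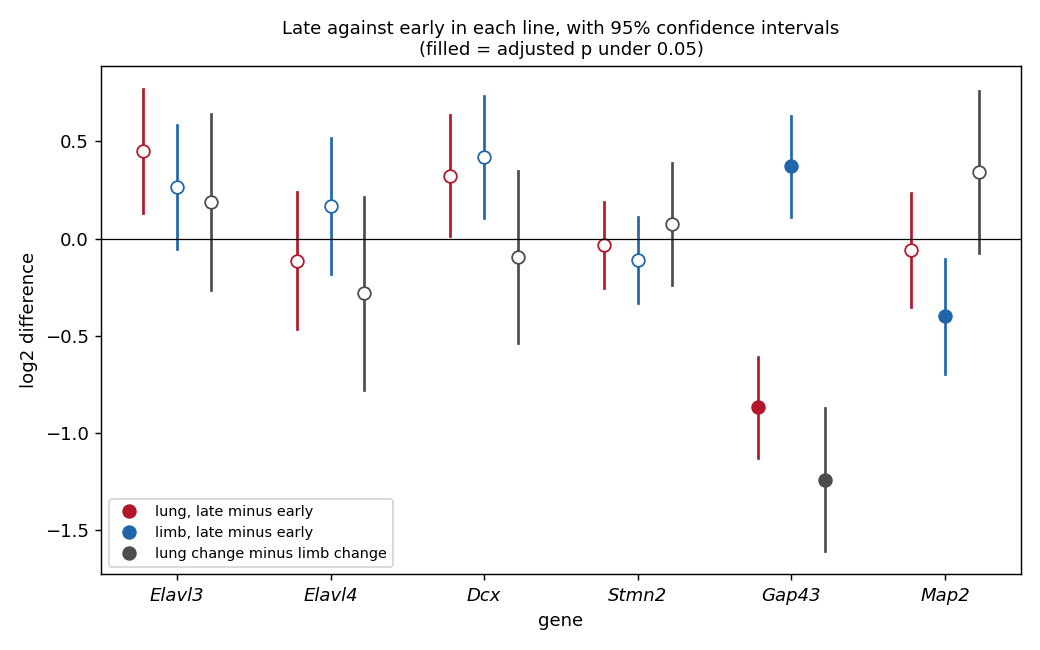
Log2 difference (y axis) of late against early cultures for each gene (x axis) in the lung line and in the limb line, and the lung change minus the limb change, with 95% confidence intervals. Filled points have an adjusted p under 0.05. Gap43 is lower late in the lung line and higher late in the limb line, and it alone has a filled point for the difference between lines.

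Other genes of neuronal differentiation were read from lists that were chosen with earlier results of these data known. Their counts against Control-NSC stand beside shares of all genes called of 12.4% in late and 18.2% in early lung cells and of 15.3% in late and 26.1% in early limb cells, and medians over all genes of 0.01. Of 9 further neuronal RNA-binding proteins, 6 were on the array and 5 were tested. In elpNSCs-late against Control-NSC, 2 rose and 1 fell. Rbfox3, which encodes the neuronal nuclear antigen NeuN, was at least 2.52-fold higher (log2 1.75 ± 0.14 SE, adjusted p = 3.25e-06), and Elavl2, the remaining neuronal Hu gene, 2.06-fold higher (1.04 ± 0.15 SE, adjusted p = 0.00039). Rbfox1 was at least 1.16-fold lower (adjusted p = 0.0402). In elpNSCs-early 1 rose (Rbfox3, at least 1.21-fold, adjusted p = 0.00376), and in both lung groups 0 of 5 passed in either direction. Rbfox3 was above background on both arrays of each limb group and on no other array. It passed the detection filter through those arrays only, which fixed its direction against Control-NSC. The list's medians were 0.10, -0.00, 0.19 and 0.08 in the same order of groups. Elavl2 was above background on both arrays of every group, Fibroblasts included. Of the 6 on the array, Fibroblasts had 3 on both arrays (Elavl2, Celf4 and Rbfox1). Control-NSC and each lung group had 2, elpNSCs-late 3 and elpNSCs-early 4. The summed raw intensity was 898.4 to 955.1 in Fibroblasts, 921.3 to 1084.2 in elpNSCs-late and 683 to 807.5 in the other neural groups.

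Of 14 tested genes of the neuronal cytoskeleton, 3 rose and 1 fell in alpNSCs-late against Control-NSC, 1 rose and 1 fell in alpNSCs-early, 5 rose and 1 fell in elpNSCs-late, and 3 rose and 1 fell in elpNSCs-early. Their median log2 differences were 0.07, 0.02, 0.28 and 0.09 in that order of groups, against 0.01 over all genes. The counts in both early groups lie near the share of all genes called. Mapt, which encodes the axonal microtubule protein tau, rose in all 4 groups, with levels of 7.62 ± 0.09 in late and 7.11 ± 0.28 in early lung cells and of 7.16 ± 0.03 in late and 7.01 ± 0.08 in early limb cells, against 5.13 ± 0.01 in Control-NSC. Stmn3, a neuronal relative of Stmn2, was above background on both arrays of every neural group and rose by 2.40 ± 0.22 SE in elpNSCs-late (adjusted p = 8.04e-06). It also rose in elpNSCs-early (1.03 ± 0.22 SE, adjusted p = 0.00428) and in alpNSCs-late (0.98 ± 0.22 SE, adjusted p = 0.0102).

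Of 14 tested growth cone and axon guidance genes, 4 rose and 2 fell in alpNSCs-late against Control-NSC, 4 rose and 3 fell in alpNSCs-early, 3 rose and 1 fell in elpNSCs-late, and 4 rose and 4 fell in elpNSCs-early. Their medians were 0.21, 0.06, 0.15 and -0.06 in that order of groups. Dpysl5, a collapsin response mediator protein, rose in alpNSCs-early (1.61 ± 0.21 SE, adjusted p = 0.000155), whereas the adhesion molecule Nrcam fell there (-3.50 ± 0.18 SE, adjusted p = 4.3e-08). Of 22 proneural and neuronal transcription factors on the array, 11 were tested, since the others were too dim. Against Control-NSC, 3 rose and 1 fell in both lung groups and likewise in elpNSCs-late, and 1 rose and 1 fell in elpNSCs-early, where the share was below that of all genes. Their medians were 0.06, 0.05, 0.25 and 0.02. Neurod1, a proneural factor, was above background in the lung groups alone, at least 1.21-fold higher in alpNSCs-late (adjusted p = 0.00179) and at least 1.40-fold higher in alpNSCs-early (adjusted p = 0.000231) than in Control-NSC. The LIM homeodomain factor Isl1 was above background in elpNSCs-late alone, at least 2.52-fold higher than in Control-NSC (adjusted p = 1.04e-07). Isl1 passed the detection filter through the elpNSCs-late arrays only, and Neurod1 through lung arrays only. The filter thus fixed their direction against Control-NSC, and their p-values add no support to it.

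Of 21 synaptic and transmitter genes 10 were tested, and against Control-NSC 3 rose and 1 fell in alpNSCs-late, 2 rose and 1 fell in alpNSCs-early, 4 rose and 1 fell in elpNSCs-late, and 3 rose and 1 fell in elpNSCs-early, with medians of 0.07, 0.06, 0.09 and -0.03. Syn1, a synaptic vesicle protein, rose in all 4, by 0.62 in late and 0.53 in early lung cells and by 1.08 in late and 0.60 in early limb cells on the log2 scale (adjusted p = 4.17e-05 to 0.00737). Of 8 tested repressors of neuronal genes, 5 fell and 0 rose in alpNSCs-late against alpNSCs-early, with 4.83% of all genes called and a list median of -0.70. In elpNSCs-late against elpNSCs-early 3 fell and 1 rose, with 23.8% of all genes called and a median of -0.03. The Notch effector Hes5 had a level of 6.69 ± 0.09 in alpNSCs-late, against 10.83 ± 0.11 in alpNSCs-early (-4.14 ± 0.12 SE, adjusted p = 1.04e-09). It had 4.72 ± 0.10 in elpNSCs-late, against 8.85 ± 0.09 in elpNSCs-early (-4.13 ± 0.12 SE, adjusted p = 1.55e-09). Hes5 was above background on only 1 elpNSCs-late array, where the lowest signals above background were 4.77 and 4.67 on the 2 arrays. Background thus limits the size of the limb fall, and the falls of the lines cannot be compared in size. Hes1 and Id1 fell as well in both lines, Hes1 by 1.94 in the lung line and 1.53 in the limb line on the log2 scale. Late against early in the lung line, 1 of 14 cytoskeleton and 2 of 14 growth cone genes rose and 0 fell, and 0 of the RNA-binding, transcription factor and synaptic genes passed in either direction. In the limb line 5 cytoskeleton genes rose and 0 fell, 4 growth cone genes rose and 2 fell, 2 RNA-binding genes rose and 1 fell, 3 transcription factors rose and 1 fell, and 2 synaptic genes rose and 0 fell.

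Over the 12 arrays, the genes whose levels ran most like Elavl4 were Nkx6-1 (Pearson r = 0.97), Kctd4 (0.96) and Cspg4 (0.94), and those most like Gap43 were Srpk3 (0.94), Elavl4 (0.93) and Snx10 (0.92). For Dcx they were Stmn3 (0.92), Mapk8ip2 (0.91) and Dnajc11 (0.91), and for Elavl3 Rtn4rl1 (0.91), Olfr373 (0.87) and P2ry12 (0.87). For Map2 they were Rassf3, Gabrg1 and Tmem30a (0.99 each), and for Stmn2 Mgp, Nfatc4 and Apod (1.00 each). Arrays of a group share their cells, so these values describe the 12 arrays and carry no p. For Map2 and Stmn2 they rest largely on the Fibroblasts arrays. Without those, over 10 arrays, they were 0.81 to 0.86 for Map2 and 0.56 to 0.85 for Stmn2, while Elavl4 and Nkx6-1 stayed at 0.97.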

How the data were processed

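Whole-cell RNA of 12 samples was labelled as biotin cRNA and read on Illumina mouse bead arrays with 25697 probes. The deposited table holds raw intensities from BeadStudio 3.2, each followed by its detection p-value, and a separate deposited table holds log2 values that the authors made with an RMA-type background correction in lumi. Background correction and quantile normalization were run here on the raw intensities (neqc in limma 3.58.1, R 4.3.3, offset 16). Probes with a detection p under 0.05 on at least 2 arrays were kept (14869). A gene was read from its brightest kept probe (10144 genes, of which 2738 had several). One limma model over 12 arrays gave 14 comparisons (6 residual and 5.82 prior degrees of freedom), with Benjamini-Hochberg adjustment over all genes and calls at an adjusted p under 0.05. The 2 arrays per group limit the precision. Alternatives were the deposited values, other background corrections, scalings, filters and probe rules, a replicate block, and each array left out. Genes named beyond the 6 came from lists, by smallest p among those called, or were markers read for detection. The genes most alike in level were sought among all genes tested. The members and lists were chosen with earlier results of these data known. Probe symbols came from the platform annotation (23978 probes with 1 symbol, 1719 with none). The scripts were tested on simulated data.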

Additional observations from a re-analysis of the deposited data

Results flagged for a closer look

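The change of Gap43 from early to late cultures differed between the lines by a test of the difference itself. The passages behind early and late are not in the labels, so the interval may differ between the lines. Each tissue has a single line label, and the spread between the 2 arrays of a group may be technical. The log2 change of late against early cultures was -0.87 in the lung line and 0.37 in the limb line, and the lung change minus the limb change was -1.24 ± 0.17 SE (limma, adjusted p = 0.00111, n = 2 arrays per group). It passed the threshold without any 1 of the 12 arrays.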

How the results depend on the processing

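No difference of the 6 genes changed its direction while called, over 994 values under 12 alternatives and 1008 values with an array left out. Of the 994, 34 lost and 17 gained a call, and of the 1008, 43 and 13. Among differences called neither before nor after, 85 of the 994 and 27 of the 1008 moved by more than the gene's pooled SD within groups. Changes in size were not counted where a call held. The count of called genes among the 6 was within 1.5 times its value in 149 of 168 cases under alternatives and 151 of 168 with an array left out. Requiring a fold of at least 2 as well left 2 for alpNSCs-late and 2 for alpNSCs-early against Fibroblasts, 0 for alpNSCs-late and 2 for elpNSCs-late against Control-NSC, and 0 for late against early in each line. For alpNSCs-early against Control-NSC the count was 2 in place of 1 with the deposited log2 values, an offset of 50, no background correction, a detection p under 0.01, the mean over kept probes, every kept probe on its own, limma with trend and robust variance, or only the arrays compared. For late against early in the limb line it was 1 with the deposited values (Stmn2, above background on no limb array, with Gap43 and Map2 lost), with no detection filter (Gap43) or with every kept probe on its own (Map2), and 0 with only the arrays compared.

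With an array left out, the counts were 3 to 4 for alpNSCs-late, 3 to 5 for alpNSCs-early, 5 to 6 for elpNSCs-late, 4 to 5 for elpNSCs-early and 3 for Control-NSC against Fibroblasts. Against Control-NSC they were 1 to 3 for alpNSCs-late, 1 to 3 for alpNSCs-early, 2 to 4 for elpNSCs-late and 2 for elpNSCs-early. For late against early they were 1 in the lung line and 0 to 2 in the limb line, between lines 2 to 3 late and 2 early, and 1 for the difference between lines.

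Replicate numbers were taken as names only, since the deviations of same-numbered arrays correlated at -0.15 to 0.24 over 15 pairs of groups, of which 10 but not all were over 0.1. With the replicate number as a block, 1 of the 6 genes (Gap43) in place of 2 was called for late against early in the limb line, where Map2 had -0.40 (adjusted p = 0.0513).

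The median of all genes in a comparison lay between -0.00 and 0.13, and between -0.16 and 0.24 with median scaling. Over all genes, a fold of at least 2 lowered the calls of each comparison by over 1.5 times (late against early in the lung line 132 in place of 490). With only the arrays compared they were 1729 in place of 2644 for elpNSCs-early against Control-NSC, 944 in place of 2413 for late against early in the limb line, and 580 in place of 1267 between the early cultures. For the difference between lines they were 290 with only the arrays compared and 326 with the deposited values, in place of 574. The causes were not tested. Elavl3, Dcx and most Elavl4 probes lay near background, where a probe above background on no array of a group has only a bound, and Dcx was not tested with a detection p under 0.01.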
